A study of Mus musculus with 4 samples.

Results

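The cells described here are Wfdc18-positive epithelial cells of the developing mouse molar. They were chosen by their own counts in single-cell RNA sequencing: a cell barcode was kept with at least 1000 unique molecular identifiers (UMIs, each standing for 1 captured mRNA molecule) and under 10% mitochondrial UMIs, and was then selected on at least 3 UMIs of Wfdc18, at least 3 summed UMIs of the epithelial genes Epcam, Krt8 and Krt18, and at most 10 summed UMIs of the collagen genes Col1a1, Col1a2 and Col3a1. This found 86 cells among 42164 kept barcodes, 3641 of which passed the epithelial and collagen limits, and among 56940 deposited barcodes in all. Of the 86 cells, 39 came from the E15.5 maxillary library, 1 from the E15.5 mandibular, 29 from the P1 maxillary and 17 from the P1 mandibular. Because Wfdc18, the 3 epithelial genes and the 3 collagen genes made the selection, their values below are a description.

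The study sequenced molar tooth organs of wild-type mice (genotype label WTB6) as embryos (E15.5, labelled E15) and newborn pups (P1, given as P0/P1 in the protocol), from the upper jaw (maxillary) and the lower jaw (mandibular). Each of the 4 combinations is 1 library made from 6 pooled tooth organs, without treatment, so no group has replicates and no p-value is given. Stages pooled over jaws, or jaws pooled over stages, were not tested. All intervals are exact 95% intervals that cover counting error only, Poisson for levels and binomial for shares and ratios. The libraries held 109723360 UMIs (E15.5 maxillary), 86659227 (E15.5 mandibular), 128812956 (P1 maxillary) and 139873101 (P1 mandibular).

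The pair of P1 libraries stood apart in one respect. They shared 7131 barcodes, against 28 to 70 for the other pairs of libraries. In the P1 maxillary library the shared barcodes held a median of 12088 UMIs and the 11576 unshared ones 2318, whereas in the P1 mandibular library the shared barcodes held 2870 and the unshared ones 8618. Shared barcodes were dropped from the P1 mandibular library. None of the 29 P1 maxillary or 17 P1 mandibular cells was a shared barcode, although 42.8% of the P1 maxillary barcodes that passed the epithelial and collagen limits were shared. All 29 P1 maxillary cells were thus among the shallower, unshared barcodes, and whether those come from that sample could not be settled. Comparisons within the P1 maxillary library are therefore given against all its epithelium and again against its unshared epithelium.

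Wfdc18 encodes a small secreted protein with a whey acidic protein domain, a fold shared by protease inhibitors and antimicrobial proteins of milk, saliva and airway fluid. Bpifb5 and Bpifb9b belong to the BPI fold family of secreted lipid-binding proteins that is prominent in salivary glands and nasal airways. Col9a1 encodes a chain of the cartilage collagen IX, and Mia is a secreted protein first known from melanoma and from cartilage. Tooth epithelium is instead marked, at the enamel-forming stage, by amelogenin (Amelx), and the oral lining by the keratins Krt4 and Krt13. Salivary, nasal and lacrimal glands form from the surface epithelium of the same region of the face, with Sox10, Ehf and Elf5 among their known transcription factors.

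Sequence upstream of 3 of these genes is shown because Wfdc18 defined the cells and because Bpifb5 and Bpifb9b were found together in single cells. Each stretch runs from 250 to 21 bases before the RefSeq start of the gene (GRCm38.p6, plus strand in all 3), with matches in capitals to AGGAAG, a core of ETS factor sites, to ACAAT, a core of SOX factor sites, and to TATAAA, the TATA box, each searched on both strands. Wfdc18 (ENSMUSG00000000983) is on chromosome 11 at chr11:83709015-83711348 and its stretch is chr11:83708754-83708983. Bpifb5 (ENSMUSG00000038572, chr2:154223742-154240902) and Bpifb9b (ENSMUSG00000067996, chr2:154307227-154320646) are neighbours in the Bpif cluster, with stretches chr2:154223492-154223721 and chr2:154306994-154307223.
Wfdc18: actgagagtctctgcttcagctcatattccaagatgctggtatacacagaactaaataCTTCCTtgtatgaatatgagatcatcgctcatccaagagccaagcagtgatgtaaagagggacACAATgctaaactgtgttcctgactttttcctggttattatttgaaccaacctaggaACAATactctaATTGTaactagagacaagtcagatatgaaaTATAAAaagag
Bpifb5: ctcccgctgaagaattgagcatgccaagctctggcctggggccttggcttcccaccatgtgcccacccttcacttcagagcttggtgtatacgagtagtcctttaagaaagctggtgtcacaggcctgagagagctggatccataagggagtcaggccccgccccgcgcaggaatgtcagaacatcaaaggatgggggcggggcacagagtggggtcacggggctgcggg
Bpifb9b: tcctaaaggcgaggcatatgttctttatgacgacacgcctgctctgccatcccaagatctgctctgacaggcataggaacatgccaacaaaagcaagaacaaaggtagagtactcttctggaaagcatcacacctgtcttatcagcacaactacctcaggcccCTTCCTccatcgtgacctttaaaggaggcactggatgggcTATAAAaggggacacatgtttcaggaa

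Counted from the first base shown, the Wfdc18 stretch held 1 ETS match (position 59), 3 SOX matches (positions 122, 179 and 190) and a TATA box at position 220. The Bpifb9b stretch held 1 ETS match (position 164) and a TATA box (position 204), and the Bpifb5 stretch held none of the 3 motifs. Among 32851 stretches of the same length in the RefSeq table, 27.2% held the ETS letters, 26.4% the SOX letters and 11.8% the TATA letters, so that single matches of this kind are common.

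In the E15.5 maxillary library the 39 cells made up 0.403% of the kept barcodes (0.287 to 0.550%) and 6.84% of the 570 epithelial barcodes (4.91 to 9.23%). The share of epithelial barcodes was 1.11% of 90 in the E15.5 mandibular library (0.0281 to 6.04%), 1.51% of 1916 in the P1 maxillary (1.02 to 2.17%) and 1.60% of 1065 in the P1 mandibular (0.933 to 2.54%). Against the unshared epithelium alone, the P1 maxillary share was 2.65%. The E15.5 maxillary interval lay above those of both P1 libraries and overlapped that of the E15.5 mandibular library, which rests on 1 cell. The limits of the rule are fixed UMI counts, while depth differed. Epithelial barcodes without a Wfdc18 UMI had a median of 13745 UMIs in the E15.5 maxillary library and 16479 in the E15.5 mandibular. The medians were 7190 in the P1 maxillary (3779 in its unshared part) and 13791 in the P1 mandibular. With 1 pool of 6 organs a library, the tissue taken at dissection, the depth and the biology of stage or jaw cannot be told apart.

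Wfdc18 was unevenly spread over the cells. In E15.5 maxillary cells it ranged from 3 to 310 UMIs with a median of 15, and the highest cell held 24.6% of their 1259 Wfdc18 UMIs. The single E15.5 mandibular cell held 64 UMIs. P1 maxillary cells ranged from 3 to 419 with a median of 11, and P1 mandibular cells from 3 to 258 with a median of 13. Depth differed between these libraries, and per 1000000 UMIs of the same cells Wfdc18 was at 1376 in the E15.5 maxillary cells and 3742 in the P1 maxillary cells, or 1051 and 2268 without the highest cell of each. The selected cells had a median of 23093 UMIs in the first library and 5234 in the second. A minimum of 3 UMIs is a higher level in a shallower cell, so the rule itself raises the P1 value. No difference between the stages is read from these levels. One cell held 47.3% of the Wfdc18 UMIs of the P1 maxillary cells, and another 42.0% of those of the P1 mandibular cells.

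**Figure D1:**
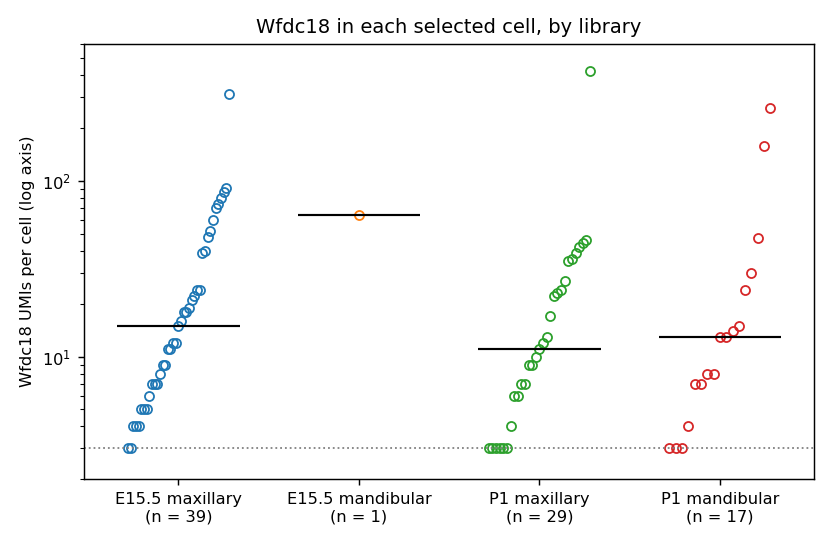
Wfdc18 UMIs (log axis) in each of the 86 selected cells, by library, with the library median as a bar and the minimum of 3 UMIs as a dotted line. The 4 libraries have 39, 1, 29 and 17 cells, and 1 cell in each of the P1 libraries and the E15.5 maxillary library exceeds 250 UMIs.

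The threshold cut through a thin tail. Among E15.5 maxillary epithelial barcodes, 12 held 1 Wfdc18 UMI and 4 held 2, just outside the rule, while 2 held 3 and 3 held 4, just inside it. The selected cells accounted for 72.2% of all 1743 Wfdc18 UMIs of that library, and for 71.9%, 77.9% and 94.0% of those of the E15.5 mandibular, P1 maxillary and P1 mandibular libraries. Another 9 kept E15.5 maxillary barcodes reached 3 Wfdc18 UMIs but exceeded the collagen limit, and held 369 Wfdc18 UMIs between them.

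A low level of Wfdc18 was also seen in other cells, and its source was not tested. A Wfdc18 UMI was seen in 3.94% of 507 E15.5 maxillary barcodes with immune genes and no epithelial UMIs (median depth 10144 UMIs) and in 0.451% of 1329 haemoglobin-rich barcodes (median 6880). Selected cells had a median of 23093 UMIs there and the epithelial barcodes without any Wfdc18 UMI, called Wfdc18-negative epithelium below (515 barcodes), a median of 13745. Median depths of the selected cells and of the Wfdc18-negative epithelium were 5234 and 7190 in the P1 maxillary library and 21267 and 13791 in the P1 mandibular.

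Of the 39 E15.5 maxillary cells, 16 (41.0%) lay above the 95th percentile of UMIs per kept barcode (24579 UMIs), compared with 17.1% of the Wfdc18-negative epithelium. Immune, endothelial, muscle and glial markers were counted in them. Of 6 immune genes the most abundant was Csf1r with 6 UMIs over the 39 cells, and Ptprc, the pan-leukocyte gene, was at 0. Of 6 endothelial genes Pecam1 led with 18 UMIs and 3 were at 0. Of 6 muscle genes Actc1 led with 16 UMIs, and 1 cell held 24 muscle UMIs. Of 6 glial genes Erbb3, which epithelia also use, led with 41 UMIs. Of the 39 cells 4 reached 5 UMIs of any 1 of these 4 lists. Mesenchymal and erythroid genes were more abundant. The 10 mesenchymal genes had 369 UMIs (403 CPM, counts per 1000000 UMIs, against 770 in the Wfdc18-negative epithelium), with none at 0 and 163 UMIs from Sparc, a matrix protein, and 22 of the 39 cells reached 5 of them, as did 70.1% of the Wfdc18-negative epithelium. The 6 erythroid genes had 3313 UMIs (3620 against 9539 CPM), 2603 of them from the globin gene Hbb-bs, with 1 gene at 0. Of these UMIs 1 cell held 2925, and 35 of the 39 cells reached 5, as did 70.3% of the Wfdc18-negative epithelium. The part of 2-cell droplets and of free RNA in the results was not tested.

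The proposed marker genes marked overlapping but different sets of cells. In the E15.5 maxillary library Mia had a UMI in 30 of 39 cells, Col9a1 in 19 and Bpifb5 in 5. Col9a1 and Mia were found together in 16 cells (41.0%, 25.6 to 57.9%). A UMI of Wfdc18, Bpifb5, Col9a1 and Mia together was held by 3 cells, where Bpifb5 allows at most 5. Conversely, 6 cells (15.4%, 5.86 to 30.5%) held none of Bpifb5, Col9a1 and Mia. Smgc, Bpifa2 and Muc19, products of the mouse salivary acinus, had 0 UMIs in the 39 cells, whereas Amy1 had 12 UMIs in 8 cells. Of 39 listed gland products 24 were at 0. Of the 9 tested 5 were at least 4-fold higher than in the Wfdc18-negative epithelium (2.75% of all genes), all through a minimum level described below. For these reasons the cells are named by Wfdc18 and the epithelial genes, and not as a gland type.

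Bpifb5 was carried almost wholly by 3 cells, with 171, 134 and 91 UMIs, and 2 more cells had 2 UMIs and 1. The same 3 cells held 91, 121 and 86 UMIs of Bpifb9b, which was at 0 in the other 36. They also held 23, 18 and 25 UMIs of Aqp5, the water channel of salivary and lacrimal acinar cells, and 18, 4 and 79 UMIs of Olfm5, an olfactomedin family member. Their Wfdc18 counts were 91, 4 and 22, so these cells were both high and low in the gene that selected them.

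Olfm5 reached 3 UMIs in 8 of the 39 cells. Besides the 3 Bpifb5 cells these included 3 with Reg3g, a secreted antibacterial lectin, at 144, 41 and 3 UMIs, which held none of Bpifb5. One of those 3 Reg3g cells held every Foxj1 UMI found in the 39 cells (51 UMIs), Foxj1 being the master transcription factor of motile cilia, together with all 63 UMIs of the dynein chain Dynlrb2 and all UMIs of the radial spoke gene Rsph1.

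Col9a1 reached 3 UMIs in 10 of the 39 cells (25.6%), with a highest value of 33, and Sox10 reached 3 UMIs in 4 of those 10. Col2a1, the chief collagen of cartilage, reached 3 UMIs in 6 of the 10 but summed to only 52 UMIs over all 39 cells. The uncharacterized genes 5430401F13Rik, BC051076 and Gm6619 were confined to 6 cells in all, and 2 cells with 33 and 29 UMIs of Col9a1 held 72 and 57 UMIs of 5430401F13Rik. The cell with the most Wfdc18 (310 UMIs) held 29 UMIs of 5430401F13Rik and none of Col9a1.

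The basal keratin Krt14 reached 3 UMIs in 19 of the 39 cells (48.7%, 32.4 to 65.2%). Krt5, its pairing partner, reached that number in 12 of these 19 cells, Krt7, a keratin of simple and ductal epithelium, in 8, and Tfcp2l1, a grainyhead-related factor of ductal epithelia, in 13. Of the 19, 3 reached 3 UMIs of Col9a1 (10 of all 39 did), 1 reached 3 of Olfm5 (8 of 39) and none reached 3 of Bpifb5 (3 of 39). Pax6, known from eye, nasal and pancreatic epithelium, reached 3 UMIs in 9 of the 39 cells, 2 of them with Krt14. These pairings of genes were chosen after the counts were seen and are given without a test.

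**Figure D2:**
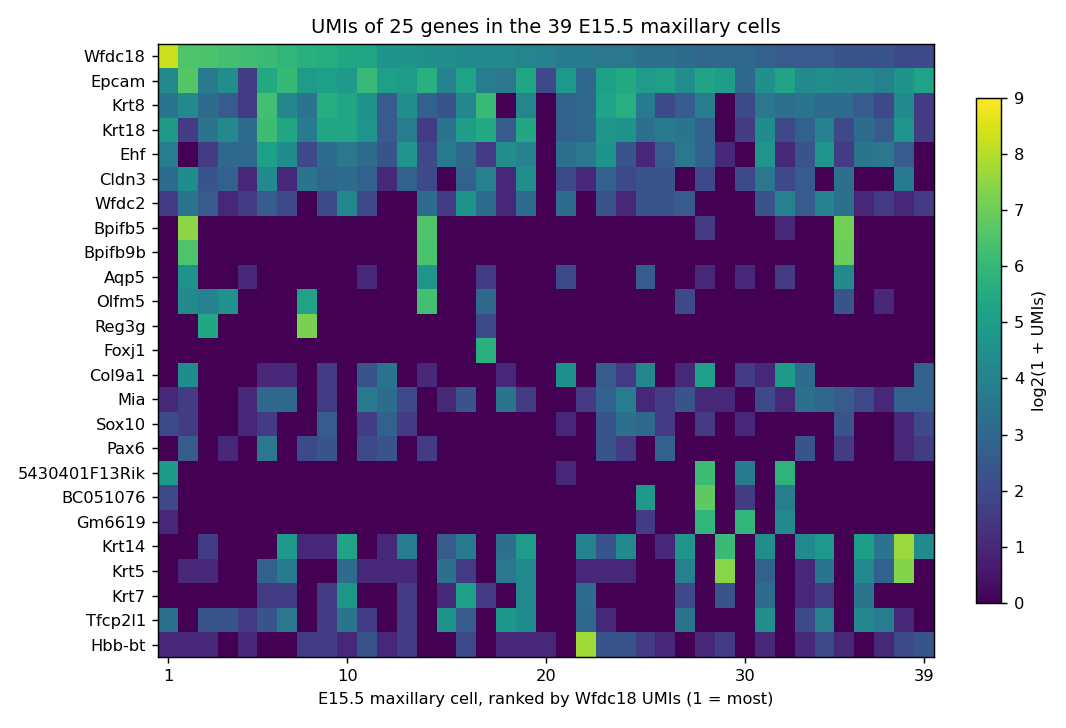
UMIs of 25 genes, as log2(1 + UMIs), in the 39 E15.5 maxillary cells ranked from the most Wfdc18 UMIs (310, left) to the fewest (3, right). Epcam is present in every column, whereas Bpifb5 and Bpifb9b are bright in 3 columns and Foxj1 in 1. Krt14 reaches 3 UMIs in 19 of the 39 columns, in 3 of the 10 with Col9a1 and in 1 of the 8 with Olfm5 at that number.

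Several epithelial regulators and junction genes were detected in most of the 39 cells. They were chosen after their values were seen, and other genes were as widespread, such as Phlda1 in 38 cells. Ehf, an ETS factor of glandular and ductal epithelia, had a UMI in 35 cells, with counts up to 33. Cldn7 was detected in 32 cells and Cldn3 in 31, both encoding claudins of tight junctions. Foxc1, a forkhead factor, was seen in 30 cells and Wfdc2, a second whey acidic protein gene, in 31. No one of these genes was in all 39.

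To compare shares at equal depth, each cell with at least 5000 UMIs was thinned to 5000 at random, which left 37 of the 39 cells and 497 of the 515 Wfdc18-negative epithelial barcodes. A Mia UMI was then found in 43.2% of the selected cells (27.1 to 60.5%) and 3.02% of the Wfdc18-negative epithelium (1.70 to 4.93%). Col9a1 was found in 21.6% against 4.02%, Bpifb5 in 8.11% against 0, which allows up to 0.739%, and Ehf in 70.3% against 6.04%. Unthinned, the selected cells gave 76.9% for Mia, 48.7% for Col9a1, 12.8% for Bpifb5 and 89.7% for Ehf. Thinned haemoglobin-rich barcodes, which should lack these genes, gave 1.41% for Mia, 0.234% for Col9a1 and 0.468% for Ehf.

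The level of each gene was taken as its summed UMIs per 1000000 UMIs of the same cells (CPM). In the 39 cells Bpifb5 had a level of 436 CPM (394 to 481), Col9a1 180 (154 to 210) and Mia 143 (120 to 170). In the Wfdc18-negative epithelium the levels were 0.114, 32.5 and 17.5 CPM. The log2 ratios were 11.90 for Bpifb5 (9.41 to 17.20, as the lower level rests on 1 UMI), 2.47 for Col9a1 (2.19 to 2.76) and 3.03 for Mia (2.69 to 3.38).

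Col9a1 and Mia were not confined to the selected cells. Within the same library Col9a1 reached 1026 CPM in 20 barcodes gated on the cartilage genes Col2a1 and Acan, where Wfdc18 was at 3.58 CPM and Bpifb5 had 0 UMIs. In 133 epithelial barcodes with the oral keratins Krt13 and Krt4, Col9a1 had 2 UMIs and Mia 0. The 32.5 CPM of Col9a1 in the Wfdc18-negative epithelium came from 23 of its 515 barcodes.

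**Figure D3:**
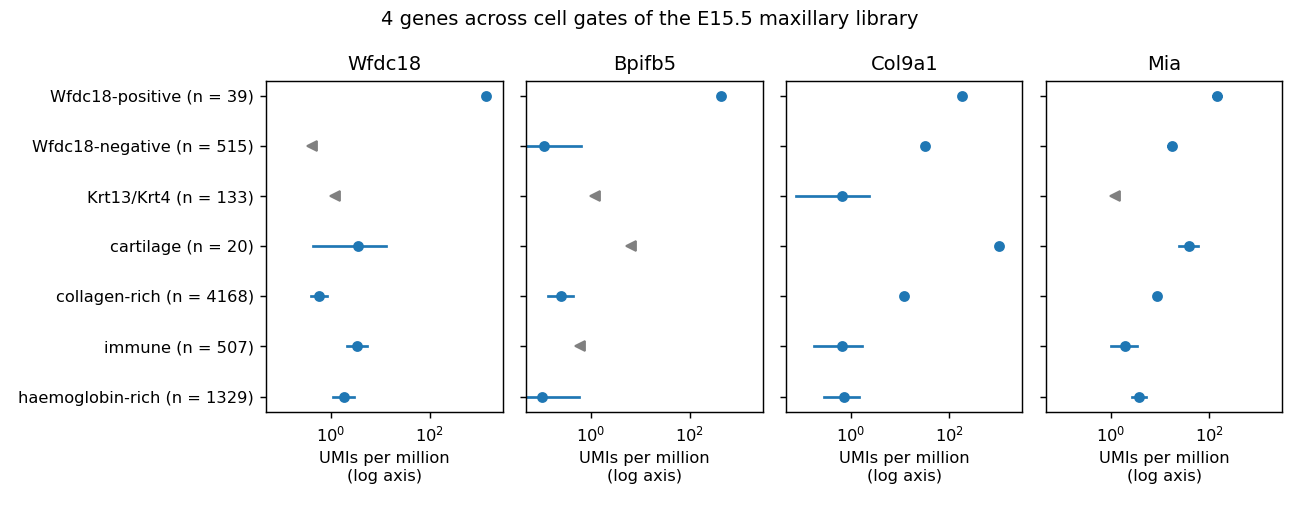
Levels of Wfdc18, Bpifb5, Col9a1 and Mia (CPM, log axis) with 95% counting intervals in 7 gates of the E15.5 maxillary library. Grey arrows mark 0 UMIs at the upper end of the interval. Col9a1 is higher in the 20 cartilage barcodes than in the 39 Wfdc18-positive cells, while among these 7 gates Bpifb5 is high only in the latter. The gates do not cover all kept barcodes.

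Genes were named from the comparison in the E15.5 maxillary library, the one with the most selected cells. Of 9950 genes at 10 CPM or more in either group, leaving out the 7 genes of the rule, 274 were at least 4-fold higher in the 39 cells than in the Wfdc18-negative epithelium (2.75%) and 336 were at least 4-fold lower (3.38%). The median log2 ratio over all these genes was 0.04. When the cell with the most UMIs of each gene was left out of the 39, 157 of 9686 genes were higher and 513 lower. This step trims the selected cells only, which pushes most ratios down, so the direction of the shift was set beforehand. The cells were chosen from the same counts, and nothing is read from these numbers beyond the sizes given. A gene that reached 10 CPM in one group and lay under 2.5 CPM in the other had to pass 4-fold, and 122 of the 274 higher genes and 157 of the 336 lower genes were of this kind.

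The genes with the largest ratios, after Bpifb5 and Bpifb9b, were 5430401F13Rik, BC051076 and Gm6619, which had 0 UMIs in the Wfdc18-negative epithelium and were at least 545-fold, 484-fold and 449-fold higher against a floor of 3 UMIs over that group. Of the 25 genes with the largest ratios, 9 were detected in 5 or fewer of the 39 cells and 4 had at least 50% of their UMIs in 1 cell. For Foxj1 and Dynlrb2 that share was 100%, and for Reg3g 76.6%. Without the highest cell 23 of the 25 were still at least 4-fold higher, the exceptions being Foxj1 and Dynlrb2, which were then at 0 UMIs.

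Of the 25, 10 were detected in 20 or more cells. They included Cldn3 (227 CPM against 5.03, log2 ratio 5.50), Ehf (389 against 17.1, 4.50), Tfcp2l1 (232 against 12.7, 4.19), Apobec3, a cytidine deaminase of antiviral defence (66.6 against 4.23, 3.98), Elf5 (62.3 against 4.80, 3.70), Foxc1 (123 against 9.60, 3.68) and Cldn7 (240 against 18.9, 3.67). Chst9, a carbohydrate sulfotransferase, and Cadps2, a factor of regulated secretion, had log2 ratios of 3.79 and 3.54. In each of these genes the highest cell held under 20% of the UMIs.

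The 10 genes with the smallest ratios included Krt4 (5.46 CPM against 295, log2 ratio -5.76, interval -7.38 to -4.53), Nkain3 (10.9 against 377, -5.11), Cdh13, a cadherin (5.46 against 176, -5.01), and 3 genes with 3 UMIs each in the selected cells, Clstn2 (-4.99, interval -7.27 to -3.44), Nell1 (-4.71, -6.99 to -3.15) and Pappa (-4.57, -6.85 to -3.02). Cpa6, a carboxypeptidase, had 0 UMIs in the selected cells against 69.6 CPM and was at least 21.2-fold lower. Among these 10 were also Myl4 and Mylpf, myosin light chains of muscle, which reached 70.9 and 155 CPM in the Wfdc18-negative epithelium. Of its 515 barcodes, 37 reached 5 UMIs of an immune, endothelial, muscle or glial list. Against the 464 barcodes that had an Epcam UMI and fewer than 5 UMIs of each of those lists, 335 genes were at least 4-fold higher and 313 at least 4-fold lower.

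Listed genes are given as counts beside the shares of all genes above (2.75% higher and 3.38% lower), and the examples follow the order of level. Other genes past 4-fold that are named were chosen after their values were seen. Of 32 Wfdc and Bpif genes 4 besides Wfdc18 itself reached 10 CPM in either group. Of these Bpifb5, Bpifb9b and Bpifb9a did so only in the 39 cells and lay at 0.114, 0.229 and 0.114 CPM in the Wfdc18-negative epithelium, so that passing 4-fold was set by the minimum and their count supports nothing. Wfdc2 was at 198 CPM against 69.7 (log2 ratio 1.50), and 24 of the 32 had 0 UMIs in the 39 cells. Among 39 products of salivary, lacrimal and nasal glands 9 were tested and 5 were at least 4-fold higher, all 5 through the minimum alone. They were the same 3 Bpif genes with Agr2, a disulfide isomerase of mucous cells (24 UMIs in 4 cells), and Dmbt1 (12 UMIs in 2 cells). Cst3, the cysteine protease inhibitor cystatin C, was at 318 CPM against 663 (-1.06).

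Of 21 gland transcription factors tested, 7 were at least 4-fold higher, with a list median of 1.43 on the log2 scale. They included Ehf, Tfcp2l1, Foxc1, Elf5, Sox10 and Foxa1, and for Foxa1 (0.800 CPM in the Wfdc18-negative epithelium) this was set by the minimum. Sox10, a regulator of secretory acini and of glia, was at 62.3 CPM against 9.49 (log2 ratio 2.71) with a UMI in 18 of 39 cells. Barx2 (300 CPM against 86.2, log2 ratio 1.80) and Runx1 (299 against 91.5, 1.71) were higher by less than 4-fold. Sox2 was lower (31.7 against 130, -2.04), and Nkx2-3 had 0 UMIs against 28.5 CPM, at least 8.68-fold lower.

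Of 15 genes of ion transport and cell junctions tested, 10 were at least 4-fold higher and none lower, with a median log2 ratio of 2.83. For 3 of the 10, Aqp5, Tspan1 and Tmprss2, this was set by the minimum, since they were under 2.5 CPM in the Wfdc18-negative epithelium. Besides Cldn7 and Cldn3 these included Atp1b1, a subunit of the sodium pump (202 CPM against 27.1, 2.90), and Chrm3, the muscarinic receptor through which nerves drive gland secretion (189 against 23.8, 2.99). Aqp5 was at 89.6 against 0.457 CPM (7.61), with UMIs in 11 cells. Slc12a2, the chloride importer of secretory cells, was at 81.9 against 79.0 (0.05, interval -0.31 to 0.40). Left without its highest cell, each of these 10 genes was still at least 4-fold higher, where 157 of all 9686 genes tested were.

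Keratins divided. Krt8 and Krt18, which were part of the rule, were at 657 and 694 CPM against 147 and 106. Krt7 was the 1 of 3 luminal keratins past 4-fold (135 against 31.2, log2 ratio 2.12), and without its highest cell it was at 1.73. Of 12 basal and myoepithelial genes tested 4 were at least 4-fold lower and none higher. Krt15 was at 354 CPM against 3126 (-3.14), Krt17 at 861 against 2416 (-1.49), Krt5 at 505 against 2343 (-2.21) and Krt14 at 651 against 1858 (-1.51). One cell held 59.3% of the Krt15 UMIs and 59.8% of those of Krt17. Without the highest cell of each gene 9 of the 12 were at least 4-fold lower, where 513 of all 9686 genes tested were.

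Of 13 oral suprabasal genes tested 5 were at least 4-fold lower and none higher. Krt13 was at 481 CPM against 2895 (log2 ratio -2.59), but 1 cell held 97.7% of its UMIs, and the other 38 cells gave a log2 ratio of -7.97. Krtdap, a keratinocyte differentiation gene, also had 95.2% of its UMIs in 1 cell. Without the highest cell of each gene 9 of the 13 were at least 4-fold lower, where 513 of all 9686 genes tested were.

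Of 12 dental epithelium genes tested 8 were at least 4-fold lower and none higher, with a median log2 ratio of -2.89. For 5 of the 8 this was set by the minimum, since they were under 2.5 CPM in the 39 cells. Lef1, a Wnt-responsive transcription factor, was at 14.2 CPM against 78.9 (-2.47) with UMIs in 6 of 39 cells. Shh, the signal of the enamel knot, had 0 UMIs against 39.9 CPM and was at least 12.2-fold lower. Wnt10a was at 10.9 against 36.8 CPM (-1.75), which is less than 4-fold.

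Of 13 nasal and olfactory genes 5 reached 10 CPM, all of them only in the 39 cells and with 2.40 CPM or less in the Wfdc18-negative epithelium (Reg3g 2.40, Rsph1 1.37, Dynlrb2 1.14, Six3 0.800 and Foxj1 0.457), so that all 5 had to pass 4-fold and their count supports nothing. Foxj1, Dynlrb2 and Rsph1 came from 1 cell and Reg3g from 3 cells. The remaining gene, Six3, a transcription factor of forebrain, eye and nasal tissue, had 33 UMIs in 10 cells (36.1 CPM against 0.800, log2 ratio 5.49). Of the 13 listed genes, which include markers of olfactory neurons and of supporting cells, 5 had 0 UMIs in the 39 cells.

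Cartilage matrix genes split. Col9a1, Col9a2, Col9a3, Col2a1 and Mia were at least 4-fold higher among 9 tested, while Sox6 (78.7 CPM against 748, log2 ratio -3.25) and, through the minimum alone, Matn4 were at least 4-fold lower. In the 24 cells with at least 10 Wfdc18 UMIs the Col9a1 ratio was 1.94, which is under 4-fold. Col9a3 was at 217 against 39.1 CPM (2.48) with UMIs in 31 cells. Of the 18 listed genes 5 had 0 UMIs. Col1a1, Col1a2 and Col3a1 were at 38.2, 27.3 and 39.3 CPM, limited by the rule.

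**Figure D4:**
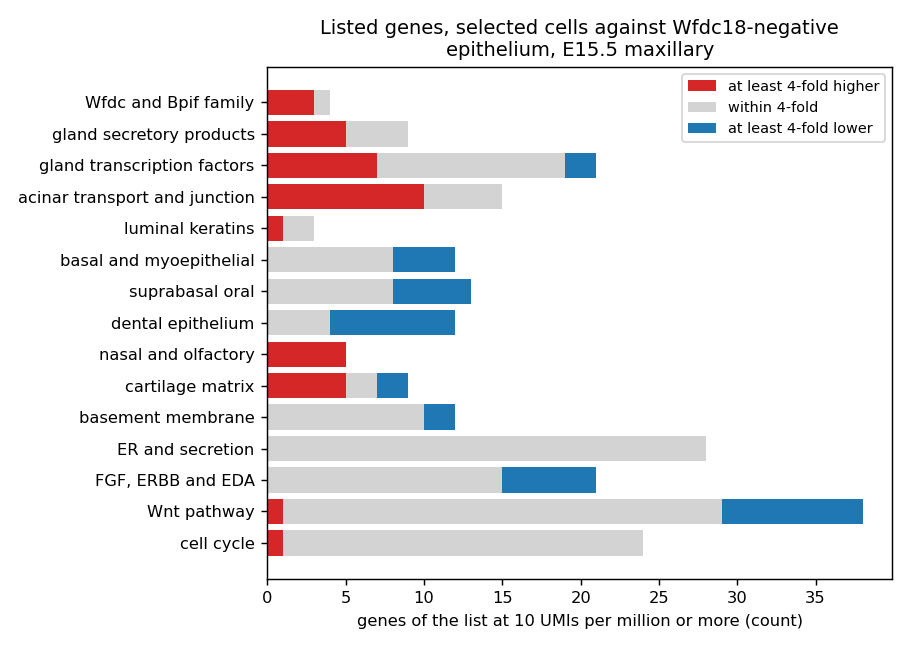
Number of genes of 15 lists that were at least 4-fold higher (red), at least 4-fold lower (blue) or within 4-fold (grey) in the 39 E15.5 maxillary cells compared with the Wfdc18-negative epithelium. Transport and junction genes show 10 of 15 higher and dental epithelium genes 8 of 12 lower, where 2.75% and 3.38% of all genes passed, and some genes passed through the 10 CPM minimum alone.

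Signalling genes were mostly within 4-fold or lower. Of 21 genes of the FGF, ERBB, EDA and hedgehog pathways 6 were at least 4-fold lower, namely the hedgehog genes Shh, Ptch1 and Gli1 and the ectodysplasin genes Eda, Edar and Edaradd, 2 of the 6 through the minimum alone. Fgfr2, the receptor for mesenchymal FGFs, was at 173 CPM against 435 (log2 ratio -1.33), Ptch1, the hedgehog receptor and target, at 12.0 against 217 (-4.18), and Eda at 49.2 against 216 (-2.14). Etv5, a target of FGF signalling, was at 85.2 against 36.3 (1.23).

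Of 38 Wnt pathway genes tested 9 were at least 4-fold lower, 6 of them through the minimum alone, and 1, Wnt5b, was at least 4-fold higher (89.6 CPM against 17.9, log2 ratio 2.32, interval 1.92 to 2.71, 21 of 39 cells). Wnt5b is a ligand of mostly beta-catenin-independent signalling. Ror1, a receptor for such ligands, was at 98.3 against 417 (-2.09), Sostdc1, an inhibitor of Wnt and BMP signals, at 84.1 against 292 (-1.80) and the ligand Wnt4 at 86.3 against 264 (-1.61). The secreted inhibitor Sfrp1 was at 190 against 71.1 (1.42). Axin2, a general target of beta-catenin, was at 12.0 against 13.5 CPM (-0.17, interval -1.21 to 0.73).

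None of 28 tested genes of the endoplasmic reticulum and secretion passed 4-fold in either direction, with a median log2 ratio of 0.41. The chaperones Hspa5 (720 CPM against 451, 0.67) and Hsp90b1 (633 against 484, 0.39) led them, followed by the translocon subunits Sec61b (597 against 354, 0.75) and Sec61g (544 against 454, 0.26). Of 12 basement membrane genes 2, Col18a1 and Lama3, were at least 4-fold lower. Of 24 cell cycle genes only Ccnd1, cyclin D1, was at least 4-fold higher (650 CPM against 124, 2.39). The median of that list was 0.66, and Mki67 was at 148 against 138 CPM (0.09, interval -0.18 to 0.35). After thinning, an Mki67 UMI was found in 35.1% of the selected cells (20.2 to 52.5%) and 24.1% of the Wfdc18-negative epithelium (20.4 to 28.2%), which overlap.

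Lists of other cell types did not all move one way. Summed over 6 genes each, immune genes were at 12.0 CPM against 60.8, muscle genes at 36.1 against 217 and endothelial genes at 31.7 against 34.9, whereas glial genes were higher at 87.4 against 48.2, with a median log2 ratio of 1.09 over the 2 tested. These 2 were Erbb3 (44.8 against 32.8 CPM, 0.45, interval -0.06 to 0.93) and Fabp7, a fatty acid binding protein of glia (37.1 against 11.2, 1.73, 1.12 to 2.31), with 20 of the 34 Fabp7 UMIs in 1 cell. At least 5 glial UMIs were held by 3 of the 39 cells and 2.91% of the Wfdc18-negative epithelium, and the part of glial RNA in the results was not tested. All 4 tested immune genes were at least 4-fold lower, with 1 or 2 UMIs each in the 39 cells, so that the minimum set this count, as were 4 of 5 erythroid genes, 3 of 3 muscle genes and 1 of 1 neuronal gene (the minimum set 1 of each of these), whereas no endothelial gene of 2 and no glial gene of 2 passed in either direction. Of 6 mesenchymal genes tested 1, Dcn, was at least 4-fold lower (10.9 CPM against 209). These counts moved with the reference: against the 464 Epcam-positive barcodes without other markers no immune gene reached 10 CPM, and 1 of 1 muscle gene and 1 of 2 glial genes were at least 4-fold higher. That reference was cleared of muscle and glial barcodes by its definition.

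Across the 39 cells Wfdc18, scaled to the UMIs of each cell and on a log2 scale, correlated negatively with the number of UMIs per cell (Spearman rho -0.48, n = 39). Its lowest coefficients among 7956 genes were with Cct8 (-0.64), Timm50 (-0.63), Hras, Glrx3 and Rpa2 (-0.61 each), and its highest with Tpt1 and Atp6v0e (0.54 each), Fau and Ly6e (0.51 each) and Rps26 (0.50). The coefficient was -0.24 with Col9a1, -0.30 with Mia, 0.27 with Ehf and -0.34 with Krt14. These points share a library and their depth, and the values are a description.

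Leaving the 7 rule genes out, the 39 cells still lay near each other among the 570 epithelial barcodes. On 20 principal components of 2000 variable genes, 50.6% of their 15 nearest neighbours on average were selected cells, where an even spread would give 6.68% and the other epithelial barcodes had 2.46%. For 24 of the 39 cells over 50% of the neighbours were selected cells, and for 2 none was. The 16 epithelial barcodes with 1 or 2 Wfdc18 UMIs had an average of 26.2%. All genes here come from the same cells, so this is a description and not a test of a cell type.

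Bpifb5, Olfm5, Reg3g and Col9a1 were also found in the 29 P1 maxillary cells, which were shallower (median 5234 UMIs against 23093 at E15.5). None of Krt14, Krt7, Col9a1 and Olfm5 reached 3 UMIs in 12 of the 29 cells (41.4%), compared with 7 of the 39 at E15.5 (17.9%). Bpifb5 was found in 4 cells, with 83, 32, 18 and 3 UMIs, and the first 3 of these held 38, 24 and 8 UMIs of Bpifb9b. Olfm5 had a UMI in 11 cells and Reg3g in 9, and 6 of the 8 cells with at least 3 Olfm5 UMIs also had at least 3 of Reg3g. Neither gene was confined to the selected cells. Olfm5 had 231 UMIs (976 CPM) in the 29 cells and 827 (160 CPM) in the unshared Wfdc18-negative epithelium of that library. Reg3g had 413 UMIs (1744 CPM) and 1418 (274 CPM). In that epithelium Bpifb5 had 33 UMIs and Col9a1 122. Col9a1 reached 3 UMIs in 6 cells, none of which had 3 of Olfm5. The cell with 419 Wfdc18 UMIs held 13 of Col9a1 and all of the 5430401F13Rik (17 UMIs), BC051076 (97) and Gm6619 (20) of the 29. Krt14 reached 3 UMIs in 1 of the 29 cells (3.45%, 0.0873 to 17.8%).

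At P1 in the maxillary library the level of Bpifb5 was 574 CPM in the selected cells, that of Col9a1 258 and that of Mia 54.9. Against all Wfdc18-negative epithelium (1863 barcodes) the log2 ratios were 8.19, 5.25 and 3.06. Against its 1047 unshared barcodes, which held 28.2% of its UMIs, they were 6.49 (5.94 to 7.09), 3.45 (2.98 to 3.91) and 1.26 (0.30 to 2.08). Of the 25 genes named for their high ratio at E15.5, 18 were at least 4-fold higher in the P1 maxillary cells against the whole epithelium and 12 against the unshared part, where 3.98% and 2.16% of all genes tested were that much higher. Of the 10 genes named for their low ratio 7 were lower against the whole epithelium and 7 against the unshared part, and 1 and 3 of them at least 4-fold, where 4.05% and 5.09% of all genes were that much lower. Against the unshared part these 3 were Krt4 (-3.29, from 2 UMIs), Kctd16 (-2.83) and Nkain3 (-2.42), whereas Cdh13 had 0.60 (-0.27 to 1.35). Ehf (2.01, interval 1.68 to 2.33), Tfcp2l1 (3.04), Foxc1 (3.49) and Epha5, an ephrin receptor (2.55), were among the 12. Without its highest cell Ehf was at 345 CPM against 99.3 in the unshared epithelium, which is under 4-fold. Against the unshared epithelium Cldn3 had 0.12 (-0.24 to 0.45), Cldn7 0.01 and Cadps2 0.02. Elf5 had -0.92 (-1.88 to -0.10), Cystm1 -0.32 (-0.88 to 0.19), Foxj1 -0.11 (-1.08 to 0.71) and Dynlrb2 -2.97 (-4.29 to -1.93), so these 4 of the 25 were not higher there.

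**Figure D5:**
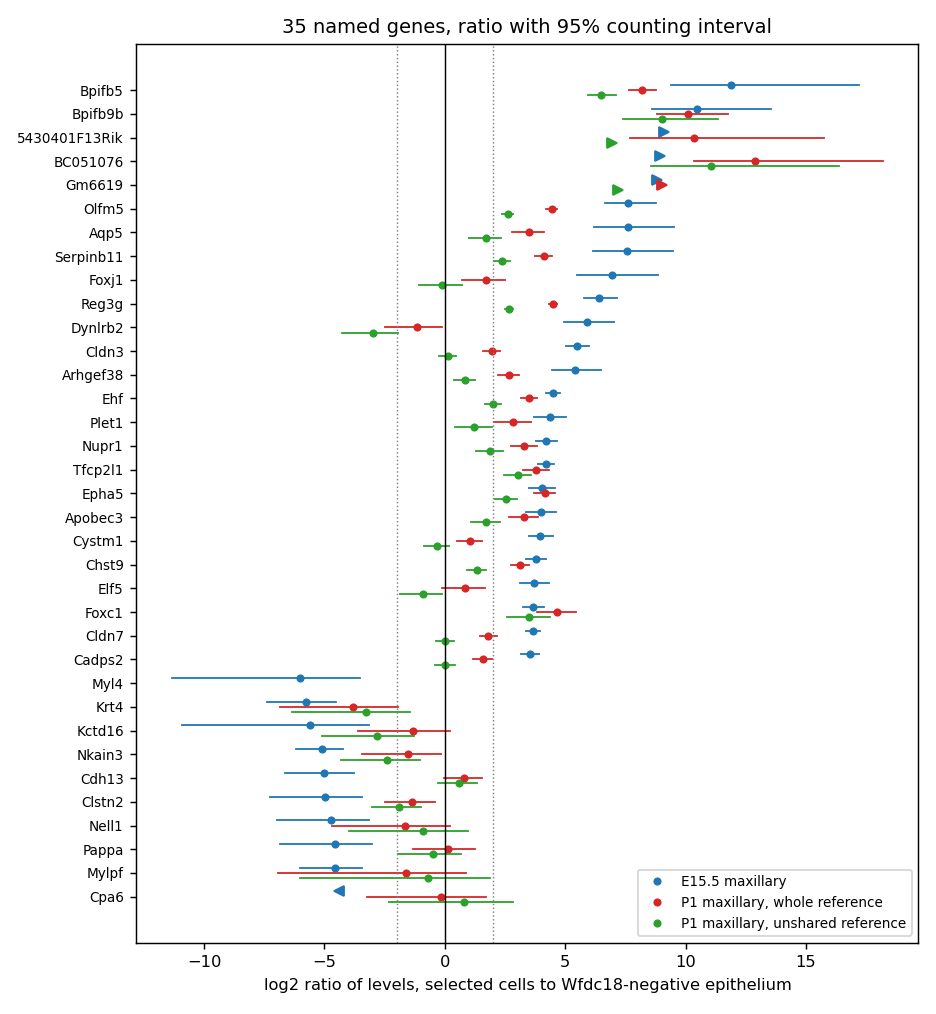
Log2 ratio of the level in selected cells to that in Wfdc18-negative epithelium for the 25 highest and 10 lowest named genes, with 95% counting intervals, in the E15.5 maxillary library and in the P1 maxillary library against its whole or its unshared epithelium. Arrowheads are bounds where 1 side had 0 UMIs, dotted lines mark 4-fold, and Myl4 with 0 UMIs in the P1 cells has no P1 value. Tfcp2l1 and Foxc1 are past 4-fold in all 3 sets, while Dynlrb2 is on opposite sides. Ehf is also past 4-fold in all 3, but only just against the unshared epithelium (2.01, interval 1.68 to 2.33).

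In the P1 mandibular library all 17 cells reached 3 UMIs of Krt14 or Krt7 (100%, 80.5 to 100%), compared with 19 of 39 in the E15.5 maxillary library and 3 of 29 of the shallower P1 maxillary cells. After thinning to 5000 UMIs a Krt14 UMI was found in 52.9% of the 17 cells (27.8 to 77.0%), 54.1% of 37 E15.5 maxillary cells (36.9 to 70.5%) and 6.25% of 16 P1 maxillary cells (0.158 to 30.2%), with 13 left out. A Krt7 UMI was found in 58.8% (32.9 to 81.6%), 27.0% (13.8 to 44.1%) and 37.5% (15.2 to 64.6%) of them, with intervals that overlap. No share in immune or haemoglobin-rich barcodes is given for these keratins, and the part of free RNA in their counts was not tested. Krt14 reached 3 UMIs in 10 cells, with a highest value of 262, and Krt7 in 13, with a highest value of 57. Ehf had a UMI in all 17 and reached 3 UMIs in 16. Olfm5, Reg3g, Bpifb9b and Pax6 had 0 UMIs in the 17 cells and Bpifb5 had 1. For Olfm5 this allows up to 19.5% of cells with a UMI at this depth, which does not limit the share that express it. The 17 cells had a median of 21267 UMIs (5072 to 83748), against 23093 (1706 to 47866) for the 39 at E15.5.

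Other secreted products were also found there. Crisp3, a cysteine-rich secretory protein of salivary gland, had 53 UMIs in 4 cells with a highest value of 38, Crisp1 had 50 in 5 cells with 36 of them in 1 cell, and the pheromone gene Esp18 had 27 in 6 cells. The chemokine Cxcl17 had 104 UMIs in 9 cells, against 37 UMIs in 8 of the 39 E15.5 maxillary cells, 19 in 6 of the 29 shallower P1 maxillary cells and 13 in the single E15.5 mandibular cell. In the 29 P1 maxillary cells Crisp3 had 5 UMIs and Crisp1 had 6, all in 1 cell, in the 39 E15.5 maxillary cells Crisp1 had 9 UMIs in 5 cells and Crisp3 had 0, and Esp18 was at 0 in both. These 4 genes were chosen after their values were seen. Mia had 63 UMIs in 7 of the 17 cells and Col9a1 9 UMIs in 2.

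Amelx had 39 UMIs over 15 of the 17 P1 mandibular cells (88.2%), with at most 5 in a cell. A UMI of it was also found in 73.3% of the immune barcodes of that library (median depth 7656 UMIs), 60.8% of the haemoglobin-rich and 79.4% of the collagen-rich barcodes, and its level was 18084 CPM in the Wfdc18-negative epithelium. The source of Amelx in the 17 cells was not tested. The single E15.5 mandibular cell, with 30134 UMIs, held 38 UMIs of Krt7, 39 of Ehf, 33 of Wfdc2, 4 of Mia and none of Bpifb5, Col9a1, Olfm5 or Reg3g.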

How the data were processed

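Molar tooth organs were dissociated and sequenced with the 10x Genomics 3′ v3.1 kit. The authors deposited raw UMI counts per gene and barcode, made with Cell Ranger 7.0.1 on mm10 with an annotation from 10x Genomics (32285 genes), for the barcodes passing its cell calling. The study's doublet removal is not applied in these counts, and no doublet caller was run here. Instead, barcodes with at least 5 UMIs of an immune, endothelial, muscle or glial list were counted and removed as an alternative.

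Levels are summed counts per 1000000 (CPM), and a count of 0 was set to 3 counts over the group for a bound. Only groups of 20 or more selected cells were given levels. Intervals are exact at 95% and cover counting error only. With 1 library per group no test was made. Ratio and interval code was checked on simulated counts. Python 3.11.15, numpy 2.4.6 and scipy 1.17.1 were used.

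Krt13/Krt4 barcodes had at least 5 UMIs of these genes, cartilage barcodes at least 20 of Col2a1 and Acan, immune barcodes at least 5 immune and 0 epithelial UMIs, and haemoglobin-rich barcodes at least 20% globin UMIs. Genes named for their ratio had at least 50 CPM and 20 UMIs in the higher group (25 high, 10 low), with up to 4 listed genes per list in order of level and 5 genes each way by correlation. The selected cells and the 22 gene lists were chosen with earlier results of these data known. Some listed genes are not reported here. Coordinates are from GENCODE vM21 on GRCm38.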

Additional observations from a re-analysis of the deposited data

Results flagged for a closer look

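Dynlrb2, a dynein light chain of motile cilia, had ratios of opposite sign in the 2 maxillary libraries. Its level in the selected cells was 68.8 CPM at E15.5 and 29.6 at P1. The Wfdc18-negative epithelium it was set against was at 1.14 CPM at E15.5 and 65.7 at P1, or 232 in the unshared part. The level of the reference thus differed more than that of the selected cells. In the E15.5 library its log2 ratio of selected cells to Wfdc18-negative epithelium was 5.91, from 63 UMIs in 1 of 39 cells, whereas in the P1 library it was -1.15 against the whole epithelium and -2.97 against the unshared epithelium, with 7 UMIs, all of them in 1 of 29 cells. The difference between the stages was not tested, since each stage is 1 library.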

How the results depend on the processing

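No paired analysis was made. Each of the 4 groups is 1 library, and levels were set only in the maxillary libraries, which have 20 or more selected cells. Cell shares paired by jaw or stage were not tested. Removing barcodes above the 95th percentile of UMIs left 23 of the 39 E15.5 maxillary cells, 0 of the 1 E15.5 mandibular and 11 of the 17 P1 mandibular cells, and a minimum of 5000 UMIs per barcode left 16 of the 29 P1 maxillary cells. The number of genes at least 4-fold higher in the 39 cells (274) became 436 against all other kept barcodes, 581 with cells thinned to 5000 UMIs, 157 without the highest cell of each gene, 85 with a minimum level of 50 CPM and 1229 with no minimum, and 838 at 2-fold or 143 at 8-fold. The number at least 4-fold lower (336) became 974 against all other kept barcodes, 513 without the highest cell, 99 with a minimum of 50 CPM, and 1006 at 2-fold or 137 at 8-fold. The log2 ratio of Col9a1 (2.47) became 1.94, under 4-fold, in the 24 cells with at least 10 Wfdc18 UMIs. The neighbour share of 50.6% became 44.0% with 30 neighbours on 40 components. The alternatives without the highest cell, with the Epcam-based reference and with the unshared P1 reference were chosen after seeing the data. The cause of these shifts was not tested, and counts of 1 to 3 UMIs and of 1 cell set the precision of many named ratios.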
